A study of Mus musculus with 37 samples.

Results

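Neutrophil genes were followed in mouse left ventricle after cardiac arrest. The set consisted of 10 genes, S100a8, S100a9, Retnlg, Csf3r, Clec4d, Stfa2l1, Il1r2, Hdc, Trem1 and Mmp9, chosen by gene symbol from the 56748 genes of the table of RNA levels. Earlier results of these data were known at the choice, so counts set beside shares of all genes are descriptive only. All 10 were listed and all 10 were among the 16530 genes tested. The hearts came from young adult C57BL/6J mice of both sexes that had all been anesthetized with isoflurane, and hearts were flushed with cold saline before collection. Naïve mice (5 libraries) had no further procedure. Adr mice were intubated and ventilated, were given a saline injection into the left ventricle and later adrenaline, and were studied on day 0.5, 1, 3 or 7 (4 libraries per day). Arrest mice were also intubated and ventilated, but the injection was potassium chloride, which stopped the heart, and adrenaline was followed by chest compressions (4 libraries per day). In the labels the Adr groups carry the name sham. The Naïve group differed from both others in the ventilation and the injection as well as in adrenaline. Levels are given as FPKM (fragments counted on a gene, divided by its length in kilobases and scaled to the total of the library), and the question was when, and in which hearts, RNA of these genes was present.

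Neutrophils are short-lived white blood cells that are released from the bone marrow into the blood and enter injured tissue within hours. They are among the first blood cells to arrive in heart muscle after ischemia and reperfusion, where they release proteases, oxidants and alarm proteins. In whole-tissue RNA, fewer cells of a type and less RNA per cell cannot be told apart.

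The genes fall into 3 roles. S100a8 and S100a9 encode the subunits of calprotectin, a calcium-binding alarm protein that fills the neutrophil cytoplasm, and Retnlg encodes a secreted resistin-like protein. Csf3r encodes the receptor of granulocyte colony-stimulating factor, Clec4d a C-type lectin receptor for microbial glycolipids, Trem1 a receptor that amplifies inflammatory signals, and Il1r2 a decoy receptor that binds interleukin-1 without signalling. Stfa2l1 encodes a stefin-like inhibitor of cysteine proteases, Hdc the enzyme that makes histamine, and Mmp9 gelatinase B, a protease stored in neutrophil granules. The genes are not confined to neutrophils. For example, Hdc is also used by mast cells and basophils, and Clec4d and Trem1 by monocytes and macrophages. That the other genes came from neutrophils alone was not tested.

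In the GRCm38 build (GENCODE M21, matched by Ensembl gene ID), S100a8 (ENSMUSG00000056054, chr3:90668978-90670035, plus strand) and S100a9 (ENSMUSG00000056071, chr3:90692632-90695721, minus strand) were neighbours. Retnlg (ENSMUSG00000022651, chr16:48872621-48874496) and Stfa2l1 (ENSMUSG00000059657, chr16:36156811-36161953) were on the plus strand of the same chromosome. The receptor genes were Csf3r (ENSMUSG00000028859, chr4:126024550-126044440), Clec4d (ENSMUSG00000030144, chr6:123262111-123275265), Il1r2 (ENSMUSG00000026073, chr1:40074079-40125231) and Trem1 (ENSMUSG00000042265, chr17:48232768-48246924), all on the plus strand. Hdc (ENSMUSG00000027360, chr2:126593667-126619299, minus strand) and Mmp9 (ENSMUSG00000017737, chr2:164940780-164955850, plus strand) shared a chromosome. Gene length in the table ran from 419 bases for Stfa2l1 to 6389 bases for Hdc.

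The bases before the transcription start are shown for Clec4d (chr6:123261857-123262106, plus strand) and Stfa2l1 (chr16:36156561-36156810, plus strand), because these were the 2 genes that passed the test on day 0.5 of Arrest. Each stretch holds the 250 bases before the start in RefSeq (GRCm38.p6), 5′ to 3′. Capitals mark matches on either strand to TTNNGNAA, a C/EBP-type motif, or to GAGGAA, the core of the PU.1 motif, named for 2 factors of myeloid cells. No match of one motif overlapped a match of the other.
Clec4d: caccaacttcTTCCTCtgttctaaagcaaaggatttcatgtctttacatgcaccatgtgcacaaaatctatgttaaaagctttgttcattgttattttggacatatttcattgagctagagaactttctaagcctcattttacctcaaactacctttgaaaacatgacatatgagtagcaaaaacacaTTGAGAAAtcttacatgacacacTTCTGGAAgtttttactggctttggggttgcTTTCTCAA
Stfa2l1: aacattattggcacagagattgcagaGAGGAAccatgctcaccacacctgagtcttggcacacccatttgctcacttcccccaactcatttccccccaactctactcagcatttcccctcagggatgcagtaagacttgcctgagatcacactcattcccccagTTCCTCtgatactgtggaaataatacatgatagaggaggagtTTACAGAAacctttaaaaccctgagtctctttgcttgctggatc
Clec4d held 3 matches to the C/EBP-type motif, which began 62, 39 and 8 bases before the start, and 1 to the PU.1 core. Stfa2l1 held 1 match to the C/EBP-type motif, which began 44 bases before the start, and 2 to the PU.1 core. RefSeq windows were at hand for 9 of the 10 genes (Mmp9 had none), and 6 held the C/EBP-type motif and 5 the PU.1 core. Among 32851 promoter windows of 250 bases, 36.8% and 23.3% held them. Such a match is a run of letters and was not tested as a binding site.

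Libraries held 13.2 to 30.2 M (mega) fragments counted on genes, so 1 fragment on a short gene such as Stfa2l1 already stood for a visible level, and intervals from counting do not cover other sources of error. Naïve replicate 4 had the fewest genes above 0 (13475) and Hdc alone of the 10 genes. Adr replicate 3 on day 3 stood apart from all other libraries, with 9.36% of its fragments on the mitochondrial genome (20.8% to 30.9% elsewhere) and summed FPKM of 98.67 for 3 pan-leukocyte genes (10.91 to 37.63 elsewhere), 966.1 for 8 macrophage genes (138.8 to 471.6 elsewhere) and 3158 for 6 genes of ventricular cardiomyocytes (at least 6546 elsewhere). The study left out 1 Adr sample of day 3 for poor quality, the labels do not mark which, and all 4 libraries labelled Adr on day 3 were used here. Results that rest on replicate 3 are also given without it. Without it Trem1 was no longer tested, since it then reached 0.5 FPKM in too few libraries. The neutrophil label rests on these 10 genes more than on others: Ly6g, the surface antigen by which mouse neutrophils are usually sorted, was listed at 0 in all 37 libraries, and Cxcr2, a chemokine receptor of mature neutrophils, reached at most 1.44 FPKM and was listed at 0 in every Naïve library.

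The 10 genes were sparse in Naïve hearts, and all 10 had a higher mean on day 0.5 of Arrest. Naïve libraries held between 1 and 6 of the 10 genes above 0, with 0.69 to 10.73 FPKM over all 10. On day 0.5 of Arrest, 3 libraries held 9 and 1 held 10, and their summed levels were 23.07, 51.67, 8.79 and 26.82 FPKM. Retnlg, Stfa2l1, Il1r2 and Trem1 were listed at 0 in all 5 Naïve libraries. On the log2(FPKM + 1) scale the fitted difference from Naïve was above 0 for 10 of 10 genes, beside 54% of all genes tested. Genes at 0 in every Naïve library could not give a negative difference. The median difference was 0.78 against 0.03 over all genes tested. That median was 0.72 with the genes absent from Naïve set at the limit that a count of 0 allows.

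Of the 10 genes, 2 passed the test on day 0.5 of Arrest against Naïve (limma, adjusted p of at most 0.05), beside 3.21% of all genes tested. These were Stfa2l1 and Clec4d, both higher, and 8 of the 10 were at or under 0.05 before adjustment, as were 18.2% of all genes tested. Stfa2l1 entered the test only through Arrest libraries, in which it is high, so its call had little room to come out otherwise. Without Adr replicate 3 on day 3 they were again Stfa2l1 (adjusted p = 0.00355) and Clec4d (adjusted p = 0.0152). In 5 genes, Csf3r, Clec4d, Stfa2l1, Hdc and Trem1, every library of this group lay above every Naïve library, a pattern held by 4.49% of all genes tested. Stfa2l1 and Trem1 were at 0 in every Naïve library, so any fragment placed a library above Naïve. Trem1, Retnlg and Il1r2 entered the test through Arrest and Adr libraries alone, with no Naïve library at the required level. The shares over all genes tested are not matched for this. The labels do not say that libraries came from separate animals, so p-values measure the spread between these samples.

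**Figure D1:**
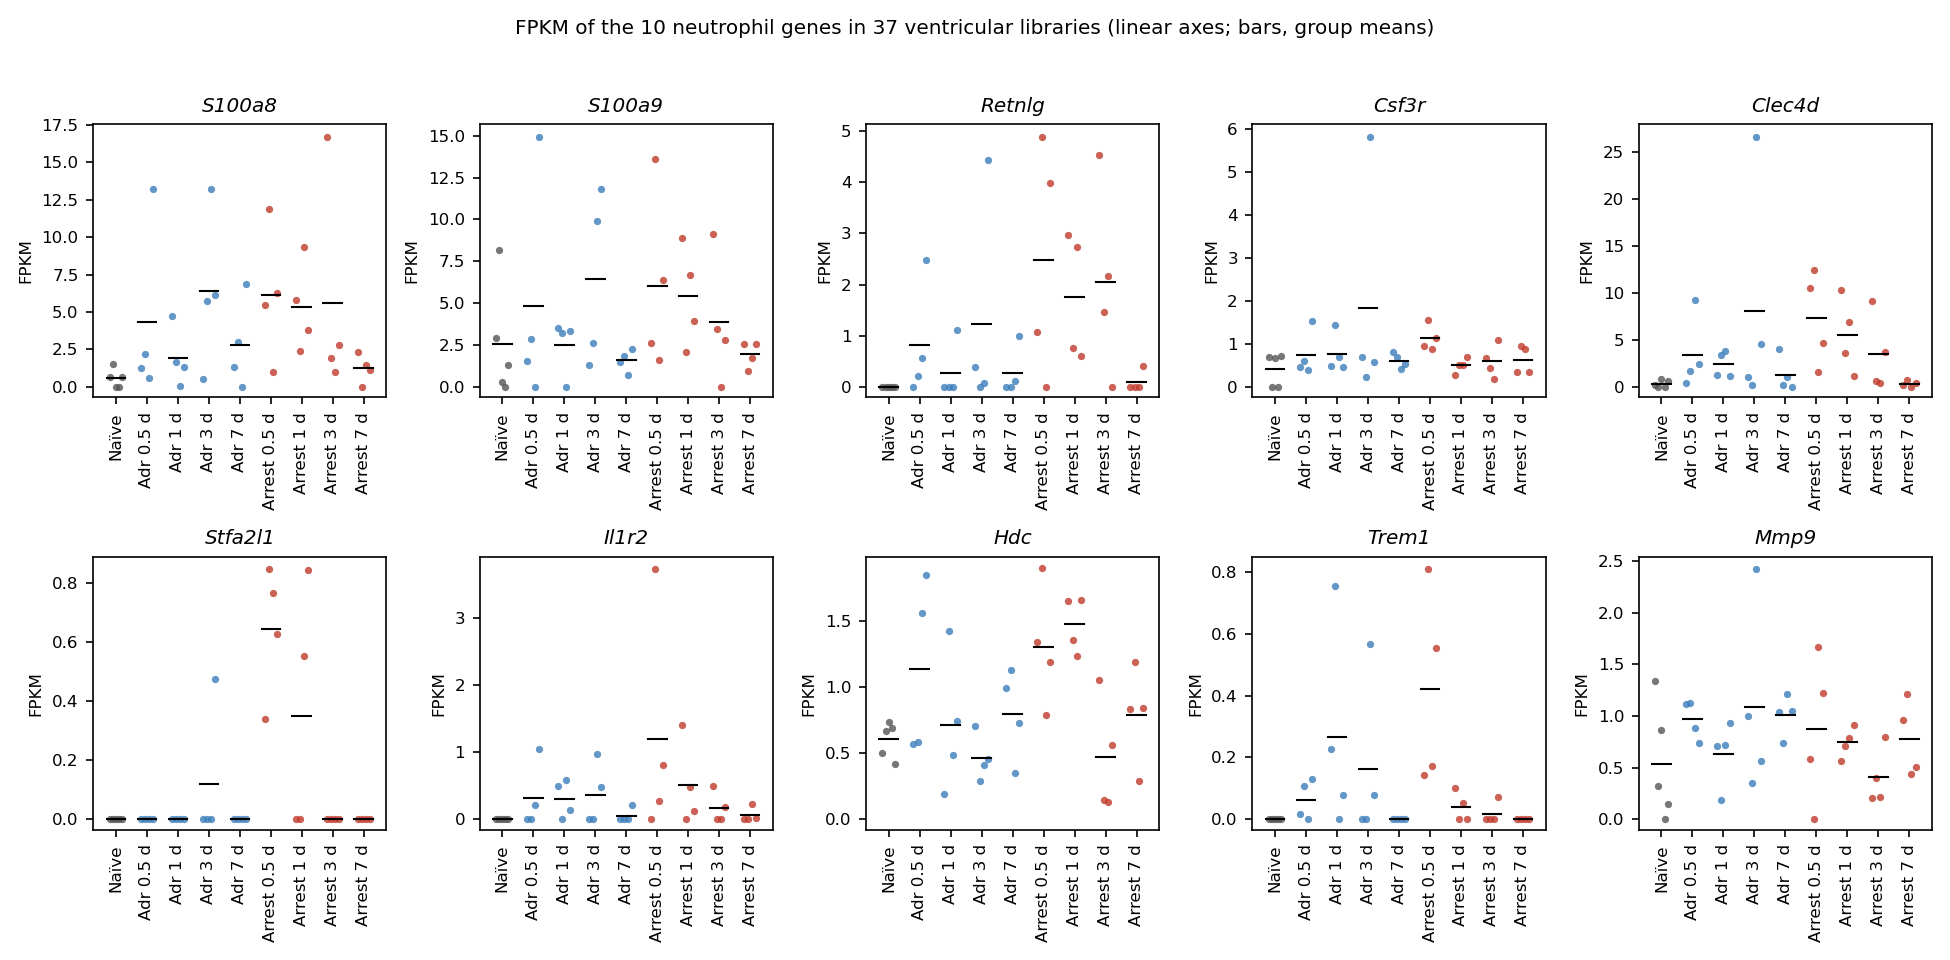
FPKM (linear vertical axes, one scale per gene) of each of the 10 neutrophil genes in every library, by group along the horizontal axis, with Naïve in grey, Adr in blue and Arrest in red, and the group mean as a black bar. Stfa2l1 was above 0 in all 4 Arrest libraries on day 0.5 and in 3 other libraries, and the 26.7 FPKM point of Clec4d is Adr replicate 3 on day 3.

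S100a8 was low in Naïve hearts, at 0.645, 1.54, 0, 0 and 0.643 FPKM. In Arrest it stood at 5.45, 11.85, 1.02 and 6.25 FPKM on day 0.5 and at 5.83, 2.42, 9.37 and 3.82 FPKM on day 1. One library on day 0.5 fell within the Naïve range and none did on day 1. Means were 6.14 ± 4.45 (SD, n = 4) and 5.36 ± 3.02 FPKM (n = 4) against 0.566 ± 0.634 (n = 5), or 10.9 and 9.47 times the Naïve mean. The log2 differences of 2.0 (SE 0.68) and 1.98 (SE 0.68) did not pass the test (adjusted p = 0.097 and 0.069). S100a9 followed S100a8 across the 37 libraries but had a higher Naïve level, 2.94, 8.20, 0.291, 0 and 1.28 FPKM. On day 0.5 of Arrest its values were 2.60, 13.6, 1.60 and 6.38 FPKM. The groups overlapped, and its log2 difference was 1.14 (SE 0.70, adjusted p = 0.40).

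The calprotectin genes had their highest group means in Adr on day 3, an order that did not hold without replicate 3 of that group. Without it the means of S100a8 and S100a9 were 4.15 and 5.26 FPKM. Arrest on day 0.5 was then highest, at 6.14 and 6.04 FPKM. In Adr on day 3 S100a8 stood at 0.544, 5.76, 13.2 and 6.15 FPKM, above every Naïve library in 3 of 4, and S100a9 at 1.30, 2.64, 9.92 and 11.8 FPKM. The highest S100a9 library of that group was thus replicate 4, and the order of means without replicate 4 was not examined. The log2 difference of S100a8 was 1.95 (SE 0.68, adjusted p = 0.21), and 1.51 (SE 0.72, adjusted p = 0.66) without replicate 3. In other groups a single library lay far above the rest. Arrest replicate 1 on day 3 held 16.7 FPKM of S100a8 and the other 3 libraries 1.93, 1.02 and 2.79 FPKM. Adr replicate 4 on day 0.5 held 13.2 FPKM of S100a8 and 14.9 FPKM of S100a9, where the rest of its group reached at most 2.23 and 2.84 FPKM. That library also had the highest summed level of 5 red blood cell genes of all libraries, 5214 FPKM, and the part of blood in its values was not tested. By day 7 of Arrest, S100a8 stood at 1.24 ± 0.969 and S100a9 at 1.94 ± 0.761 FPKM (SD, n = 4).

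Retnlg was absent from the Naïve libraries (0 fragments in 5 libraries, which allows up to 0.0705 FPKM) and present in most early Arrest hearts. It stood at 1.08, 4.89, 0 and 3.99 FPKM on day 0.5 and at 2.96, 0.763, 2.74 and 0.596 FPKM on day 1. On day 1 no library was at 0, and on day 0.5 one was. The means were at least 35.3-fold and at least 25.0-fold higher than Naïve, with the floor of 3 fragments taken over the Naïve group. Neither passed the test (adjusted p = 0.085 and 0.086). Retnlg was at 4.54, 1.47, 2.17 and 0 FPKM on day 3 of Arrest (adjusted p = 0.19) and was listed at 0 in 3 of 4 libraries on day 7. In Adr it was at 0 in 1 of 4 libraries on day 0.5, in 3 on day 1, in 1 on day 3 and in 2 on day 7.

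Clec4d was one of the 2 genes that passed the test on day 0.5 of Arrest. Naïve libraries held 0.240, 0, 0.809, 0 and 0.651 FPKM, and Arrest libraries 10.6, 12.5, 1.61 and 4.66 FPKM on day 0.5. The groups did not overlap, although the lowest Arrest library lay close to the Naïve range. The mean rose from 0.340 ± 0.373 (SD, n = 5) to 7.34 ± 5.07 FPKM (SD, n = 4), 21.6 times the Naïve mean, with a log2 difference of 2.40 (SE 0.69, adjusted p = 0.046). The call did not hold when any Naïve library or Arrest replicate 1, 2 or 4 was left out (adjusted p from 0.054 to 0.18), and held without Arrest replicate 3 (adjusted p = 0.029). On day 1 of Arrest it stood at 10.3, 3.60, 6.92 and 1.18 FPKM, again above every Naïve library, with a log2 difference of 2.06 (SE 0.69, adjusted p = 0.062). It stood at 9.14, 0.587, 0.442 and 3.71 FPKM on day 3 and at 0.231, 0.791, 0 and 0.427 FPKM on day 7, so that every library on day 7 lay within the Naïve range.

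In Adr hearts Clec4d was 0.435, 1.69, 9.27 and 2.41 FPKM on day 0.5 and 1.23, 3.43, 3.84 and 1.19 FPKM on day 1. The 4 libraries of day 1 lay above every Naïve library, and the adjusted p was 0.38. On day 3 Adr replicate 3 held 26.7 FPKM and the others 1.04, 0.246 and 4.54 FPKM. The mean of that group, 8.12 ± 12.5 FPKM (SD, n = 4), was the highest of all 9 groups and was 1.94 ± 2.28 FPKM without replicate 3. Macrophage and pan-leukocyte genes were also highest in replicate 3, and their part in the value was not tested.

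Csf3r was expressed at a low level in most hearts and passed no test. Naïve libraries held 0.691, 0, 0.675, 0 and 0.721 FPKM, and Arrest libraries on day 0.5 held 0.949, 1.56, 0.891 and 1.14 FPKM. All 4 lay above the Naïve range, but the log2 difference of 0.62 (SE 0.30) did not pass the test (adjusted p = 0.27). On day 1 of Arrest its level was 0.503 ± 0.175 FPKM (SD, n = 4) and overlapped with Naïve. Adr replicate 3 on day 3 held 5.82 FPKM (507 fragments), and the others of its group held at most 0.690 FPKM.

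Il1r2 and Trem1 were listed at 0 in every Naïve library, which allows up to 0.0219 and 0.0140 FPKM. Trem1 stood at 0.143, 0.809, 0.172 and 0.556 FPKM on day 0.5 of Arrest, from 6, 41, 8 and 38 fragments. Every library thus held it, and the mean was at least 30.1-fold higher than Naïve, without passing the test (adjusted p = 0.058). On day 1 of Arrest it was at 0.102, 0, 0.0517 and 0 FPKM, and on day 7 of both arms at 0 in every library. In Adr it was at 0.227, 0.755, 0 and 0.0777 FPKM on day 1. The decoy receptor Il1r2 varied more between hearts of 1 group, with 0, 3.72, 0.270 and 0.804 FPKM on day 0.5 of Arrest (at least 54.7-fold higher than Naïve in the mean, adjusted p = 0.11). Arrest replicate 2 gave 120 of the 163 fragments behind that mean. Its mean on day 1 of Arrest was 0.503 ± 0.633 FPKM (SD, n = 4), and it was at 0 in 2 of 4 libraries on day 3 and in 2 on day 7.

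Stfa2l1 was above 0 in 7 of 37 libraries, the fewest of the 10 genes, and was the other gene that passed the test. It stood at 0.341, 0.847, 0.768 and 0.627 FPKM on day 0.5 of Arrest, from 2, 6, 5 and 6 fragments. Outside that group it was above 0 in 3 libraries, Arrest replicates 3 and 4 on day 1 (0.554 and 0.844 FPKM) and Adr replicate 4 on day 3 (0.476 FPKM). The 5 Naïve libraries were all at 0, which allows up to 0.0998 FPKM, so the mean of 0.646 ± 0.223 FPKM (SD, n = 4) was at least 6.47-fold higher (adjusted p = 0.0052). The spread behind this p-value is pooled over all groups, and most of them were at 0 in every library and added no spread. The gene reached the level that the test required in 5 libraries, all of them Arrest, and entered the test only through them. Its call held when each library of the compared groups was left out in turn, with adjusted p from 0.005 to 0.036. Those fits pooled the spread in the same way. The call was lost, at an adjusted p of 0.22, when the trend of each library with gene length was removed. Stefin genes are near-identical copies and how the authors' counting shared their reads is not stated, so the level is uncertain between Stfa2l1 and its copies. Of these, Stfa3 reached 0.902 FPKM in a Naïve library. Its group means were 0.180 FPKM in Naïve, 0.117 FPKM in Adr on day 0.5 and 0 in every Arrest group. Stfa1 was above 0 only in Adr on day 0.5 (mean 0.0565 FPKM), and Stfa2 was at 0 in every library. Stefin RNA as a whole was thus not absent from Naïve hearts.

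Hdc was the only gene of the 10 found in all 37 libraries, and its Naïve values lay close together, 0.500, 0.670, 0.738, 0.691 and 0.419 FPKM. On day 1 of Arrest it stood at 1.65, 1.36, 1.24 and 1.66 FPKM, well clear of Naïve, and on day 0.5 at 1.34, 1.90, 0.785 and 1.19 FPKM. Its mean of 1.48 ± 0.213 FPKM (SD, n = 4) on day 1 was 2.44 times the Naïve mean of 0.604 ± 0.137 (SD, n = 5). The log2 differences were 0.62 (SE 0.21, adjusted p = 0.060) on day 1 and 0.50 (SE 0.21, adjusted p = 0.18) on day 0.5. On day 3 of Arrest its mean was 0.472 ± 0.435 FPKM (SD, n = 4). Of the 9 mast cell and basophil genes, 7 were tested. On days 0.5 and 1 of Arrest 0 passed, beside 3.21% and 7.11% of all genes tested. The median log2 differences of these mast cell and basophil genes were -0.12 and -0.29, and Mcpt8, a basophil protease, was at 0 in every library. Their summed level was 4.94 to 17.25 FPKM in Naïve and 2.84 to 13.54 FPKM on day 1 of Arrest.

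Mmp9 showed little difference between Naïve and early Arrest. Naïve libraries held 1.34, 0.320, 0.860, 0 and 0.147 FPKM and Arrest libraries on day 0.5 held 0.585, 0, 1.67 and 1.23 FPKM. The groups overlapped throughout, and the log2 difference was 0.26 (SE 0.25, adjusted p = 0.63). Its highest group means were in Adr, 1.08 ± 0.932 FPKM on day 3, with 2.42 FPKM in replicate 3, and 1.01 ± 0.197 FPKM on day 7 (SD, n = 4). Across libraries its correlation with the other 9 genes ran from r = -0.27 (Retnlg) to r = 0.41 (Csf3r), and the latter was 0.10 without the 2 farthest libraries.

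On day 1 of Arrest, 0 of the 10 genes passed the test against Naïve with limma and 0 with limma-voom on the recovered fragments, where 7.11% of all genes tested passed with limma. Before adjustment 5 were at or under 0.05 (S100a8, Retnlg, Clec4d, Stfa2l1 and Hdc), as were 21.7% of all genes tested. All 10 had a positive difference, beside 53.3% of all genes tested, with a median of 0.56 (0.55 with the absent genes at their limit). Genes absent from Naïve could not give a negative difference in this fit. Stfa2l1 and Trem1 turned to -0.05 and -0.03 when the trend of each library with gene length was removed. In 4 genes, S100a8, Retnlg, Clec4d and Hdc, every library lay above every Naïve library, a pattern held by 5.71% of all genes tested. For Retnlg, at 0 in every Naïve library, any fragment sufficed. With Adr replicate 3 on day 3 left out, Clec4d passed (log2 difference 2.06, adjusted p = 0.024). On day 3 of Arrest 0 genes passed, beside 0.139% of all genes tested, and 2, S100a8 and Retnlg, were under 0.05 before adjustment, as were 13.7% of all genes tested. No gene had every library above Naïve on day 3 or on day 7, beside 1.74% and 1.03% of all genes tested. On day 7, 0 passed, beside 0%, and 0 were under 0.05 before adjustment, beside 5.15%. Limma-voom gave 0 on both days.

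In Adr hearts none of the 10 genes passed the test. Against Naïve the counts were 0 on days 0.5, 1, 3 and 7 by limma and by limma-voom, beside 0.188%, 0.69%, 0% and 0% of all genes tested, and 0, 1, 3 and 0 genes were under 0.05 before adjustment (Trem1 on day 1, and S100a8, Csf3r and Clec4d on day 3), beside 14%, 14.7%, 13.9% and 6.15% of all genes tested. Without replicate 3, S100a8 alone was under 0.05 on day 3, beside 7.31%. Median log2 differences were 0.40, 0.28, 0.54 and 0.19 on the 4 days (0.40, 0.26, 0.54 and 0.17 with the absent genes at their limit). Without replicate 3 the median on day 3 was 0.19 over the 9 genes then tested, with Csf3r at a log2 difference of 0.12 (SE 0.22) and Clec4d at 0.89 (SE 0.65). Clec4d on day 1 was the one case in which every Adr library lay above every Naïve library. The share of all genes tested with that pattern was 3.36%, 2.51%, 1.29% and 0.938% on the 4 days.

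**Figure D2:**
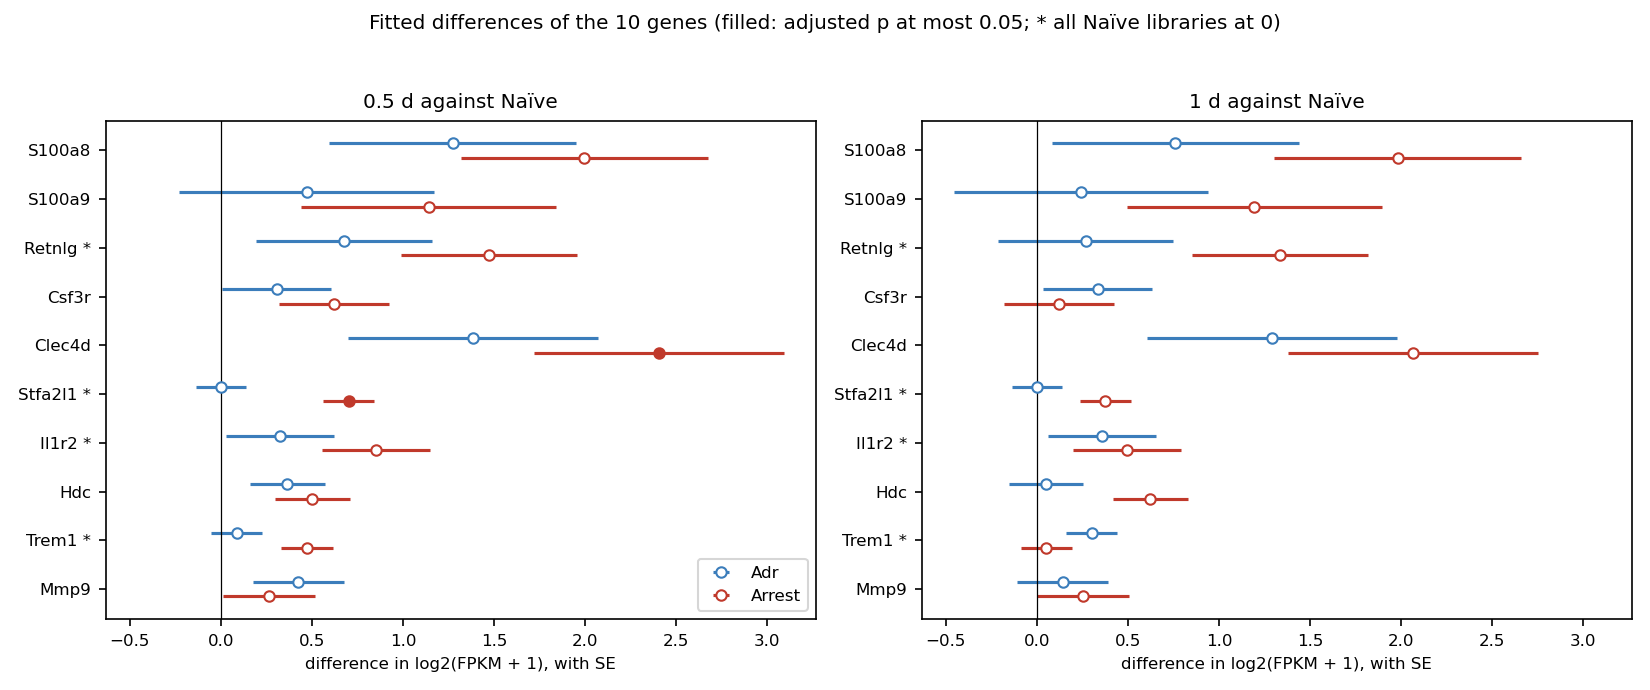
Fitted differences from Naïve in log2(FPKM + 1) for the 10 neutrophil genes on day 0.5 (left) and day 1 (right), with Adr in blue and Arrest in red; bars are the SE of the fit and filled points passed the test. Clec4d at 2.40 and Stfa2l1 in Arrest on day 0.5 are the filled points. At these low levels the size of the differences depends on the constant of 1, including genes marked *, whose Naïve libraries were all at 0.

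Arrest and Adr were compared directly on the same day, with 0 of the 10 genes past the test on days 0.5, 1, 3 and 7 by limma and by limma-voom, beside 0%, 0%, 0% and 0.00605% of all genes tested. On day 0.5 Stfa2l1 was listed at 0 in every Adr library and above 0 in every Arrest library (adjusted p = 0.23), and Trem1 was higher in the mean (0.420 against 0.0636 FPKM, adjusted p = 1). Clec4d differed by 1.02 (SE 0.72) and S100a8 by 0.72 (SE 0.72) on the log2 scale, neither past the threshold (adjusted p = 1). Stfa2l1 and Trem1 were under 0.05 before adjustment, beside 3.86% of all genes tested. On day 1, Hdc, Retnlg and Stfa2l1 were, with adjusted p of 0.66, 0.73 and 0.69, beside 6.59%, and on days 3 and 7 0 genes were, beside 5.37% and 2.52%. Stfa2l1 entered the test only through Arrest libraries of days 0.5 and 1. Its difference from Adr on those days was in part fixed by that selection. Both arms were compared with the same Naïve libraries. The results against Naïve therefore do not show that the arms differed.

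Within Arrest, day 0.5 was set against day 7, and 1 of the 10 genes passed beside 0.381% of all genes tested. Stfa2l1 was at 0 in every library on day 7, which allows up to 0.0992 FPKM, and at least 6.51-fold higher on day 0.5 (adjusted p = 0.029). Because Stfa2l1 entered the test only through Arrest libraries of days 0.5 and 1, a level of 0 on day 7 was in part fixed by that selection. This call was lost without Arrest replicate 2 (adjusted p = 0.15) or 4 (0.053) of day 0.5 or without any 1 of the 4 libraries of day 7 (0.073 to 0.090). All 10 differences were positive, beside 50.1% of all genes tested. Stfa2l1 and Trem1, at 0 in every library on day 7, could not give a negative one. Of the 10, 6 were under 0.05 before adjustment (11.5% of all genes tested were), among them Clec4d with 2.37 (SE 0.72, adjusted p = 0.15). Between day 0.5 and day 1, 0 genes passed in Arrest and 0 in Adr (limma and limma-voom), beside 0% and 0% of all genes tested, with 2 and 0 under 0.05 before adjustment (2.93% and 2.79% of all genes tested were). Those 2 were Trem1 and Stfa2l1 (adjusted p = 1 for each), with higher means on day 0.5 of Arrest. Between day 0.5 and day 7 of Adr 0 passed, beside 0.00605%, and 0 were under 0.05 before adjustment, beside 8.11%. For the change from day 0.5 to day 1, 0 of the 10 genes differed between the arms past the threshold by limma or limma-voom, beside 0% of all genes tested, and 1, Trem1, was under 0.05 before adjustment, beside 3.3% (difference of log2 changes, Arrest minus Adr, -0.64, SE 0.21, adjusted p = 1).

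When the 9 groups were ordered by mean for each gene, none of the 80 pairs of neighbouring groups was separated, since libraries of each pair overlapped or were both at 0. Arrest on day 0.5 had the highest mean for Retnlg, Stfa2l1, Il1r2 and Trem1, Arrest on day 1 for Hdc, and Adr on day 3 for the other 5. Without Adr replicate 3 on day 3, Arrest on day 0.5 had the highest mean for 8 genes, Arrest on day 1 for Hdc and Adr on day 7 for Mmp9. The order at the top thus did not hold without that library for S100a8, S100a9, Csf3r, Clec4d and Mmp9.

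Other genes of mature neutrophils were mostly too low to test. Of 16 further genes, 15 were in the table, 2 were tested and 0 passed in Arrest or Adr on day 0.5 or 1. Of all genes tested, 3.21% and 7.11% passed on these days in Arrest and 0.188% and 0.69% in Adr. Fpr2, a formyl peptide receptor, stood at 0.0937 ± 0.179 FPKM in Naïve (SD, n = 5) and 0.770 ± 0.698 FPKM on day 0.5 of Arrest (SD, n = 4, adjusted p = 0.13), and Pglyrp1, a peptidoglycan-binding granule protein, at 0.356 ± 0.374 and 1.13 ± 0.903 FPKM (adjusted p = 0.34). Of 12 granule and precursor genes, 2 were tested and 1 passed. This was Lcn2, a siderophore-binding protein that many injured tissues also make, which rose on day 0.5 and day 1 of Arrest (log2 difference 3.84 and 3.89, adjusted p = 0.0047 and 0.0021). Ctsg, Fcnb and Ms4a3, which are made in marrow precursors, were at 0 in all 37 libraries, and Mpo reached at most 0.225 FPKM.

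Genes that recruit neutrophils, 8 of 11 tested, included 1 that passed on day 0.5 of Arrest and 1 on day 1, both higher, and 0 in Adr. The shares of all genes tested were 3.21% and 7.11% in Arrest and 0.188% and 0.69% in Adr. Selp, a selectin on which neutrophils roll, rose from 0.231 ± 0.330 (SD, n = 5) to 2.20 ± 1.91 FPKM (SD, n = 4) on day 0.5 (log2 difference 1.24, adjusted p = 0.047). Cxcl1, a chemokine for neutrophils, rose from 0.321 ± 0.354 (SD, n = 5) to 3.13 ± 1.95 FPKM (SD, n = 4) on day 1 (log2 difference 1.55, adjusted p = 0.030). Of the 21 ligands, adaptors, inhibitors and proteases that work with the 10 genes, 15 were tested. On day 0.5 of Arrest 2 passed the test, both higher, beside the same shares of all genes tested. They were Lcn2, which binds gelatinase B and is also counted above among the granule genes, and Timp1, an inhibitor of gelatinase B (log2 difference 3.13, adjusted p = 0.014). On day 1 these were joined by Ctsl, a cysteine protease (log2 difference 0.79, adjusted p = 0.017), and Timp1 stood at 22.3 ± 8.83 FPKM (SD, n = 4) against 2.98 ± 2.68 in Naïve (SD, n = 5). None passed with a lower level, and 0 passed in Adr on day 0.5 or 1.

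Markers of other blood cells were read beside the 10 genes. On day 0.5 of Arrest 0 of 6 monocyte, 0 of 8 macrophage, 0 of 3 pan-leukocyte, 0 of 4 platelet, 0 of 5 red blood cell and 0 of 2 tested lymphocyte genes passed, and on day 1 only the macrophage gene Cd163 did (log2 difference 1.15, adjusted p = 0.039). In Adr on day 0.5 or 1, 0 passed in any of these lists. Of all genes tested, 3.21% and 7.11% passed on these days in Arrest and 0.188% and 0.69% in Adr. The summed level of the monocyte genes was 10.73 to 21.04 FPKM in Naïve and 24.72 to 39.63 FPKM on day 0.5 of Arrest, above every Naïve library. For the macrophage genes it was 165.6 to 276 and 226.1 to 312.9 FPKM, and for the pan-leukocyte genes 12.88 to 18.96 and 16.2 to 25.79 FPKM. The median log2 difference of the monocyte genes was 0.49 on day 0.5 and 0.07 on day 1, where that of the 10 genes was 0.78 and 0.56. The part of monocytes in the result was not tested. Red blood cell genes summed to 1697 to 3951 FPKM in Naïve and to less or about as much, 1545 to 2097 and 1563 to 1719 FPKM, on days 0.5 and 1 of Arrest, and platelet genes to 41.03 to 64.1 and 52.82 to 72.58 FPKM in Naïve and on day 0.5. As a check of the tissue, 6 genes of ventricular cardiomyocytes and 3 of atrial muscle gave 0 calls in either arm on day 0.5 or 1, with atrial sums of 13.5 to 31.7 FPKM in Naïve and up to 645 FPKM in Adr on day 1.

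**Figure D3:**
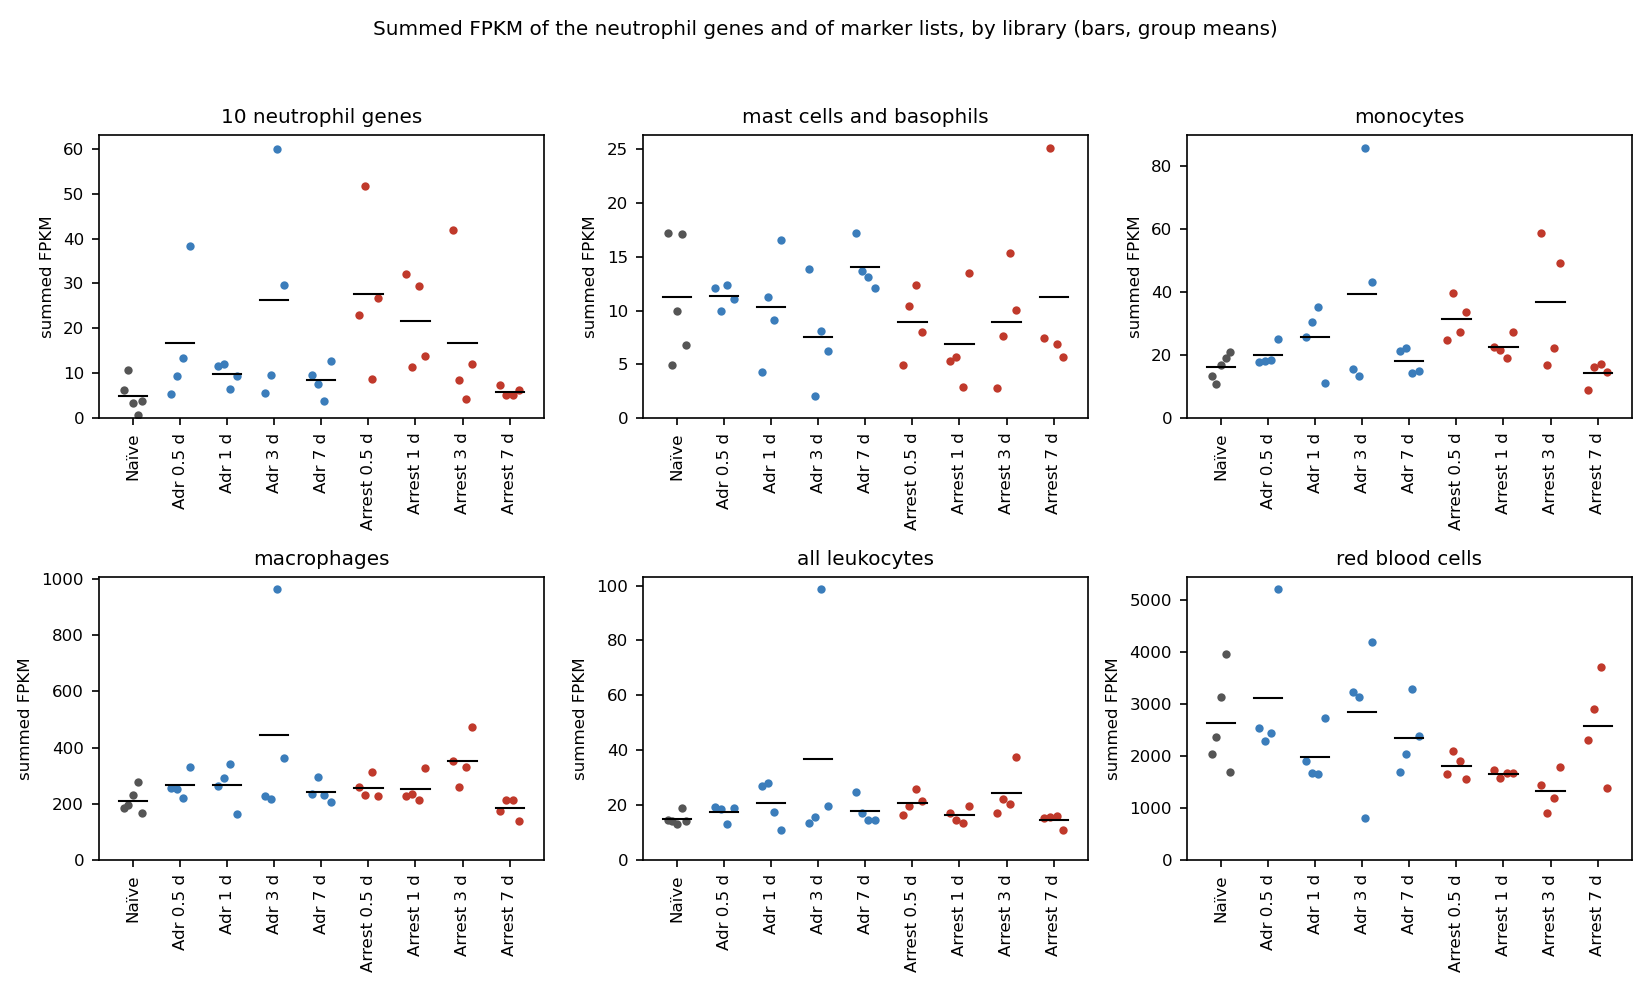
Summed FPKM (linear vertical axes from 0, one scale per list) of the 10 neutrophil genes and of 5 marker lists in every library, by group along the horizontal axis, with Naïve in grey, Adr in blue and Arrest in red, and group means as black bars. The neutrophil genes summed to at most 10.73 FPKM in Naïve and to 51.67 FPKM in the highest library of Arrest on day 0.5, and the highest point of their panel (60.04 FPKM) and of the monocyte, macrophage and pan-leukocyte lists is Adr replicate 3 on day 3.

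The 10 genes varied together only in part across the 37 libraries, which share groups and depth. S100a8 and S100a9 were the closest pair (Pearson r = 0.83, Spearman rho = 0.83, and r = 0.80 without the 2 farthest libraries), followed by Csf3r and Trem1 (r = 0.65). The median over the 45 pairs was 0.41 and the lowest value -0.27. Outside the set, the genes whose log2(FPKM + 1) was most like the mean of the z-scores of the 10 genes were Slc3a2, an amino acid transporter subunit (r = 0.86), Il4ra, an interleukin-4 receptor chain (0.85), Adamts4, a matrix protease (0.83), Socs3, an inhibitor of cytokine signalling (0.83), Sbno2 (0.83), Myc (0.82), Carhsp1 (0.81), Ccl6, a chemokine (0.81), Rasd1 (0.81) and Plaur, the urokinase receptor (0.81). These were taken from 16520 other genes, over all 37 libraries.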

How the data were processed

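Left ventricular RNA of 37 libraries was analysed, with groups taken from the sample labels. The values were FPKM, which the authors deposited in 1 table with the length of each of 56748 genes. Reads were sequenced by Novogene and aligned with HISAT2. The genome build, annotation, counting tool and strand are not given in the sources used here, and only 2.83% of 52073 shared gene IDs had the positions of GENCODE M21, so positions are those of GRCm38 by gene ID. Near-identical copies and overlapping genes are uncertain. FPKM times gene length was a whole multiple of 1 fragment (tolerance 0.01) in 100% of values below 1000 fragments, which gave whole fragments and the depth of 13.2 to 30.2 M fragments. Among 666 pairs of libraries none were copies.

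FPKM were divided by median-ratio factors (mean factor 1.013), and log2(FPKM + 1) was taken. The 16530 genes that reached 0.5 FPKM in 4 or more libraries were fitted with limma 3.58.1 in R 4.3.3 (1 mean per group, all libraries, eBayes with trend), and p-values were adjusted by Benjamini-Hochberg within each of 17 comparisons at 0.05. On simulated data for Arrest on day 0.5 against Naïve (15472 genes tested), 78% of genes changed by 1.5 and 99% of those changed by 2.5 on the log2 scale were called. The changed genes were drawn from those with a mean of at least 1 FPKM and had a fixed dispersion. Many of the 10 genes were lower or varied more, so these rates do not show how often their changes would be called. All 10 genes are named. From the other lists (further mature neutrophil genes, granule and precursor genes, recruiting genes, partners, and markers of mast cells, monocytes, macrophages, leukocytes, red blood cells, platelets, lymphocytes, cardiomyocytes and atria) at most 4 are named, the largest changes past the threshold in Arrest on day 0.5 or 1 or otherwise the highest means, and defining genes listed at 0 or low were added after their values were seen. The 10 genes and the lists were chosen with earlier results of these data known. Where a count was 0, the upper limit is that of 3 fragments over the group's libraries. Alternatives were the scaling, filter, pseudocount, gene length trend, weights, covariates, the samples in the fit, limma-voom on recovered fragments and leaving out libraries. Python 3.11.15 and matplotlib 3.10.9 made the figures.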

Additional observations from a re-analysis of the deposited data

Results flagged for a closer look

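Of 79 combinations of gene and group with any fragment, 14 held a library far from the rest of its group by Dixon's criterion. Its chance rate of about 1 in 20 is that of normally distributed values and does not apply to sparse counts. A group with a single library above 0 is always flagged. This held for Retnlg (Adr day 1, Arrest day 7), Stfa2l1 (Adr day 3), Il1r2 (Adr day 7) and Trem1 (Arrest day 3). In 5 of the 14 combinations the library was Adr replicate 3 or 4 on day 3. Replicate 3 held 5.82 FPKM of Csf3r, 26.7 FPKM of Clec4d and 0.567 FPKM of Trem1, and replicate 4 held 4.44 FPKM of Retnlg. Replicate 4 also gave the only Stfa2l1 of that group, 0.476 FPKM. S100a8 was high in Adr replicate 4 on day 0.5 (13.2 FPKM) and in Arrest replicate 1 on day 3 (16.7 FPKM). S100a9 was 0 FPKM in Adr replicate 3 on day 1, the lowest of its group. Retnlg was high in replicate 4 of Adr on day 1 (1.11 FPKM) and day 7 (1.0 FPKM) and of Arrest on day 7 (0.403 FPKM). Il1r2 was high in Adr replicate 4 (0.208 FPKM) and Arrest replicate 3 (0.232 FPKM) on day 7, and Trem1 in Arrest replicate 4 on day 3 (0.0718 FPKM). Several of these values rest on single-digit numbers of fragments.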

How the results depend on the processing

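Counts of the 10 genes past the threshold were recomputed under each alternative, and in no case did the direction of a named difference that had passed reverse. Against Naïve on day 0.5 of Arrest (2 genes), 1 gene passed with the number in each sample's description as covariate, with a mean of at least 1 FPKM required, with no filter, with quantile normalization or with scaling by fragments counted, and 0 with the gene length trend removed. Leaving out 1 library gave 1 to 5, the highest (Clec4d, Retnlg, S100a8, Stfa2l1 and Trem1) without Arrest replicate 3. On day 1 (0 genes), 1 passed with a mean of at least 1 FPKM, 4 with only the compared groups in the fit, 2 with a pseudocount of 0.1 and 2 with sample quality weights. Leaving out 1 library gave 0 to 1, the highest without Adr replicate 3 on day 3 (Clec4d) or Arrest replicate 1, 2 (Stfa2l1) or 4 (Clec4d). Arrest against Adr on day 0.5 (0 genes) gave 1 with sample quality weights. Day 0.5 against day 7 of Arrest (1 gene) gave 0 with the gene length trend removed or a mean of at least 1 FPKM, 3 with weights, 2 with limma-voom and 0 to 1 when 1 library was left out. The causes were not tested. With the replicate number as a replicate block, 1 gene passed in place of 2 on day 0.5 of Arrest and 280 of all genes in place of 531. Libraries with the same number did not deviate together (mean correlation -0.0081 over 144 pairs, 0.0028 over 464 pairs with other numbers), so the numbers do not pair them.

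Over 20 alternatives that could test it, Stfa2l1 passed on day 0.5 of Arrest against Naïve in 19. They reused the Arrest libraries through which it entered the test, and its Naïve libraries were all at 0. That count therefore had little room to come out otherwise. Clec4d passed in 7 of 22 (adjusted p from 0.015 to 0.18). Over all genes, the 531 calls on day 0.5 of Arrest became 237 with that covariate, 300 with the length trend removed, 323 with no filter, 904 without Adr replicate 3 on day 3 and 127 to 478 when a library of the compared groups was left out. The 1176 calls on day 1 became 34 with the covariate, 768 with the block, 1947 with weights and 487 to 1240 when a library was left out, and the 63 calls of day 0.5 against day 7 became 33 with the length trend removed, 32 with no filter, 303 with only the compared groups, 618 with weights, 205 without Adr replicate 3 on day 3 and 5 to 84 when a library was left out. Calls over all genes against Naïve ranged from 3 to 363 for Adr on day 0.5 (31), from 0 to 417 for Adr on day 1 (114) and from 0 to 189 for Arrest on day 3 (23), with 0 of the 10 genes in each case. Depth limits the low genes, since Stfa2l1 rests on 33 and Trem1 on 215 fragments over all libraries.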
